A study of Arabidopsis thaliana with 6 samples.

Results

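A set of 7 *Arabidopsis thaliana* genes that serve the heat shock chaperones was followed in roots exposed to cadmium. They were AT5G48570, the FKBP-type peptidyl-prolyl isomerase ROF2 (FKBP65), AT1G66080, a Hikeshi-like protein, AT4G12400 (Hop3), AT3G12050, an AHA1-type protein, and AT2G20560, AT3G14200 and AT1G56300, which belong to the DnaJ proteins. They were chosen by locus, as the probe set whose annotation names exactly 1 of these loci. Each of the 7 had 1 such probe set, out of 22746 probe sets that are not array controls, and 7 of 7 passed the filter on low signal, which left 15909 probe sets for testing.

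Both groups were roots of 4-week-old Col-0 plants in hydroponic culture, kept at 28 °C with 16 h of light and 8 h of dark per the labels. The cadmium group had 200 µM cadmium, a toxic heavy metal, for 6 h, and the control group was left without it. Each group had 3 Affymetrix ATH1 arrays, titled as biological replicates 1, 2 and 3. Values are MAS5 signals on a linear scale, in which the probes of a set are combined into 1 number per array. Precision is limited by the number of arrays.

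Heat shock proteins of the HSP70 and HSP90 classes fold other proteins in cycles of ATP hydrolysis that co-chaperones set in motion or bring to an end. DnaJ proteins deliver clients to HSP70 and stimulate its ATPase, HOP proteins bridge HSP70 and HSP90, and AHA1 stimulates the ATPase of HSP90. In mammalian cells Hikeshi carries HSP70 into the nucleus during heat stress. In plants many of these genes are under heat shock factors and rise within minutes to hours of heat or other conditions that unfold proteins.

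The arrays of replicate 2 stood apart from the others. Signals had a 2% trimmed mean of 227 on the cadmium and 216 on the control array of replicate 2, against 500 on the other 4 arrays. The log2 ratio of 3' to 5' signal of an actin control was 3.22 and 2.05 on those arrays, and 0.07 to 0.34 on the others. A GAPDH control had 1.67 and 2.02, against -0.60 to -0.19. Other controls had a smaller gap. A second actin control had 3.72 and 3.46 against 2.41 to 2.99, and a second GAPDH control 0.38 and 0.19 against -0.10 to 0.05. Ubiquitin had 1.26 and 1.05 against 0.65 to 1.03. Over the 15909 tested probe sets the difference between cadmium and control in replicate 2 correlated with that in replicate 1 at r = -0.68 and with that in replicate 3 at r = -0.63, while those of replicates 1 and 3 correlated at r = 0.77, all across genes, which are not independent replicates. Whether the group labels of the 2 arrays of replicate 2 are the right way round was not tested, and the sign of every replicate 2 value, and all results over 6 arrays or on replicate 2, rest on those labels. Arrays are therefore named by the group their labels give, and results are given over all 6 arrays, within replicates 1 and 3 (2 cadmium and 2 control arrays), and as a test of the difference between replicate 2 and the other pairs. Of 29 listed root genes 4 had a named probe set, among them PYK10, an abundant root beta-glucosidase, with signals of 12364, 3450 and 12674 on cadmium arrays 1, 2 and 3 and 12846, 5157 and 10871 on the control arrays. The other 3 are root hair genes, and within replicates 1 and 3 their log2 differences were 4.83 for XTH26 (adjusted p = 0.0778, limma, with signals of 3.63 and 16.1 on the control arrays), 1.15 for EXPA18 (adjusted p = 0.165) and 0.77 for EXPA7 (adjusted p = 0.408). The median of the 4 root genes was 0.96 there and -0.11 in replicate 2, and the part of root hair RNA in the results below was not tested. Of 25 listed shoot photosynthesis genes 3 had one, and their summed signal was 765 to 4278 on the cadmium and 960 to 3521 on the control arrays, with 0 of 3 past the threshold in any of the 3 tests. In whole roots, fewer cells of a type and less RNA per cell cannot be told apart.

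Within replicates 1 and 3, 6 of the 7 genes had both cadmium arrays below both control arrays, as did 16.9% of all tested probe sets. In all, 3 of 7 were lower past the threshold of an adjusted p of 0.05 (limma), against 3.24% of all tested probe sets, and 0 of 7 were higher, against 1.29%. The 3 were the peptidyl-prolyl isomerase, the Hikeshi-like gene and the DnaJ gene AT3G14200, which were 15.3-fold to 26.0-fold lower. Signals of the Hikeshi-like gene on both cadmium arrays, and of the isomerase on cadmium array 3, were below the array medians. The size of their folds is therefore uncertain. The median difference of the 7 was -3.44 on the log2 scale, against 0.22 over all tested probe sets. In replicate 2 their median was 3.17, with the cadmium array higher in 7 of 7, though for AT1G56300 by 0.089 only. The genes were taken up with earlier results of these data known, so these counts are no independent evidence of their direction.

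**Figure D1:**
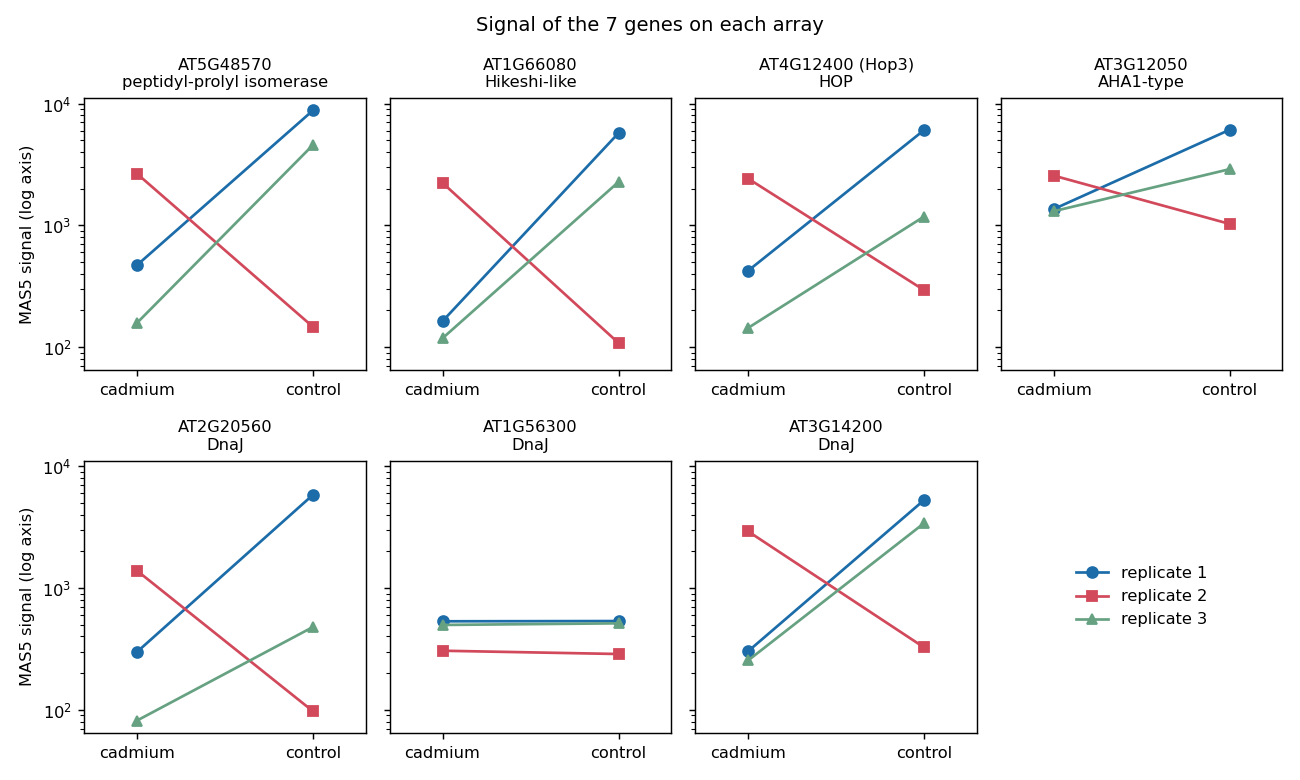
MAS5 signal (log axis) of the 7 genes on each array, cadmium left and control right, with a line joining arrays of the same replicate number. In 6 panels the lines of replicates 1 and 3 run upward to control and that of replicate 2 runs downward, while AT1G56300 is nearly level in each pair.

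The isomerase AT5G48570 is a heat-induced FKBP that joins its relative ROF1 and HSP90 in a complex and is known to restrain the heat shock factor HSFA2. It had signals of 471, 2652 and 158 on cadmium arrays 1, 2 and 3, against 8803, 146 and 4576 on control arrays 1, 2 and 3. Cadmium array 2 and control arrays 1 and 3 were high, the other 3 were low, and the groups of all 6 arrays overlapped. Within replicates 1 and 3 it was 23.3-fold lower on the cadmium arrays (log2 difference -4.54 ± 0.60 SE, n = 2 each, adjusted p = 0.0275, limma). In replicate 2, which has no replication, it was 18.1-fold higher.

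The Hikeshi-like gene AT1G66080 encodes a partner of heat shock factors in Arabidopsis. Its signals were 163, 2229 and 118 on cadmium arrays 1, 2 and 3, against 5732, 108 and 2274 on the control arrays. The same 3 arrays were high as for the isomerase. It was 26.0-fold lower within replicates 1 and 3 (log2 difference -4.70 ± 0.48 SE, adjusted p = 0.0173, limma) and 20.7-fold higher in replicate 2. Of the 7 genes it had the widest difference in each of these. Its signals on cadmium arrays 1 and 3 were below the medians of those arrays (244 and 221). On control array 2 its signal was close to the array median (100), so the size of both folds is uncertain.

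Hop3, the heat-inducible member of 3 HOP co-chaperones, had signals of 423, 2420.5 and 143 on cadmium arrays 1, 2 and 3, against 6059.9, 293 and 1181 on the control arrays. Within replicates 1 and 3 the groups did not overlap, but the 2 control arrays were 5.13-fold apart. The log2 difference was -3.44 ± 0.89 SE, which did not pass the threshold (adjusted p = 0.102, limma). With replicate number as a further term in that fit it passed (adjusted p = 0.00023, limma). That setting called 3521 probe sets, against 721 without the term. The replicate numbers were not taken to pair the arrays, as the section on processing describes, so that pass is not counted as a result. In replicate 2 the log2 difference of Hop3 was 3.05.

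The AHA1-type gene AT3G12050 was high on the same 3 arrays with a smaller span. Its signals were 1357, 2561 and 1304 on cadmium arrays 1, 2 and 3, against 6092, 1026 and 2892 on the control arrays. Its lowest signal, 1026, was above the median signal of every array (93.9 to 244). The log2 difference within replicates 1 and 3 was -1.66 ± 0.37 SE (adjusted p = 0.0785, limma), and in replicate 2 it was 1.32. With replicate number as a further term the adjusted p within replicates 1 and 3 was 0.0042 (limma). That setting called 3521 probe sets, against 721 without the term, and the numbers were not taken to pair the arrays.

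The 3 DnaJ genes did not share 1 pattern. AT3G14200 had signals of 302, 2919.8 and 254 on cadmium arrays 1, 2 and 3, against 5278, 325 and 3410.0 on the control arrays. It was 15.3-fold lower within replicates 1 and 3 (log2 difference -3.94 ± 0.28 SE, adjusted p = 0.0112, limma), and its SE was the smallest of the 3 genes that passed. AT2G20560 had signals of 299, 1386 and 81.5 on the cadmium arrays, against 5839, 97.0 and 479 on the control arrays. Its control arrays 1 and 3 were 12.2-fold apart, and its log2 difference of -3.42 ± 1.26 SE did not pass (adjusted p = 0.185, limma). With replicate number as a further term AT2G20560 passed (adjusted p = 0.0014, limma), in a setting that called 3521 probe sets, against 721 without the term. The numbers were not taken to pair the arrays.

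AT1G56300 was nearly level between the groups. Its signals were 533, 305 and 497 on cadmium arrays 1, 2 and 3, against 535, 287 and 513 on the control arrays. Both arrays of replicate 2 were low, as were their trimmed means over all probe sets, and within each pair the signals differed little. The log2 difference was -0.025 ± 0.21 SE within replicates 1 and 3 (adjusted p = 0.951, limma), with a 95% interval from -0.55 to 0.49, so a 2-fold change lay outside that interval. Over all 6 arrays its difference of 0.013 turned negative after quantile normalization or median centring (-0.058 and -0.13).

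Over all 6 arrays 0 of 7 genes passed the threshold in limma, and the same was true of 0 of 7 at an unadjusted p under 0.05. The share over all tested probe sets was 0%, with 84 at an unadjusted p under 0.05. The median log2 difference of the 7 was -1.28, and that of all tested probe sets 0.089. For 0 of 7 genes were the groups of 6 arrays free of overlap, and the share over all tested probe sets was not counted. For the Hikeshi-like gene the mean log2 signal was 8.45 ± 2.32 on the cadmium and 10.13 ± 3.0 on the control arrays (SD, n = 3 each), so the difference of -1.68 was smaller than the spread of each group.

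**Figure D2:**
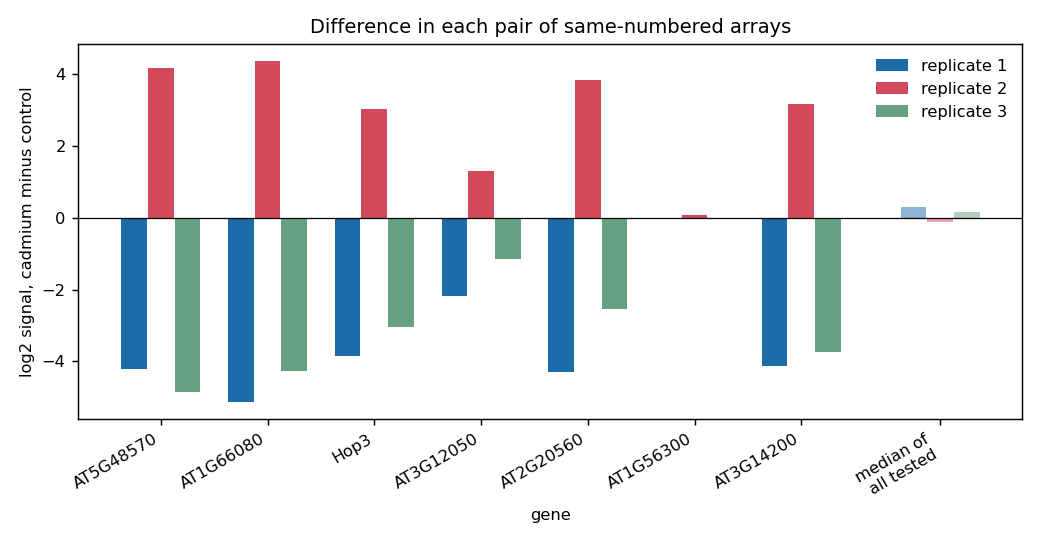
Log2 signal of the cadmium minus the control array of each replicate number for the 7 genes, with the median of all tested probe sets at the right. Replicates 1 and 3 lie below 0 and replicate 2 above 0 for 7 of 7 genes, though AT1G56300 has 0.089 in replicate 2.

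The opposition of replicate 2 was tested gene by gene, as the difference in replicate 2 minus that in replicates 1 and 3, under the assumption that its single arrays vary like the others. That assumption cannot be checked with 1 array per group, and the trimmed means and actin ratios above set these arrays apart, so the p-values may be too small. The test was also chosen with the opposition already known, and it measures its size rather than giving independent evidence of it. All 7 genes were higher on the cadmium array in replicate 2 and lower in replicates 1 and 3, a combination found in 18.8% of all tested probe sets. AT1G56300 was nearly level in each pair, with log2 differences of -0.006, 0.089 and -0.044 in replicates 1, 2 and 3. The test called 3 of 7 genes (limma), against 5.09% of all tested probe sets called in that direction. At an unadjusted p under 0.05 the counts were 6 of 7 genes and 11.3%. The 3 were the genes that passed within replicates 1 and 3, whose arrays enter both tests. AT1G66080 differed by 9.07 ± 0.83 SE (adjusted p = 0.0152), with a log2 difference of 4.37 in replicate 2 and -4.70 in replicates 1 and 3. AT5G48570 differed by 8.72 ± 1.04 SE (adjusted p = 0.0196) and AT3G14200 by 7.11 ± 0.49 SE (adjusted p = 0.0104).

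The AHA1-type gene (2.98 ± 0.65 SE, adjusted p = 0.0551) and Hop3 (6.49 ± 1.56 SE, adjusted p = 0.0651) missed the threshold in this test, as did AT2G20560 (7.26 ± 2.22 SE, adjusted p = 0.104). AT1G56300 had a value of 0.11 ± 0.35 SE (adjusted p = 0.856). Leaving out AT1G56300, the log2 differences were 1.32 to 4.37 in replicate 2 and -1.66 to -4.70 in replicates 1 and 3, and the AHA1-type gene was the nearest to 0 in both. Among 15909 probe sets, AT1G66080 ranked 36th from the highest in replicate 2 and 47th from the lowest in replicates 1 and 3, and AT3G12050 ranked 986th and 655th. AT1G56300 ranked 6037th and 4937th.

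**Figure D3:**
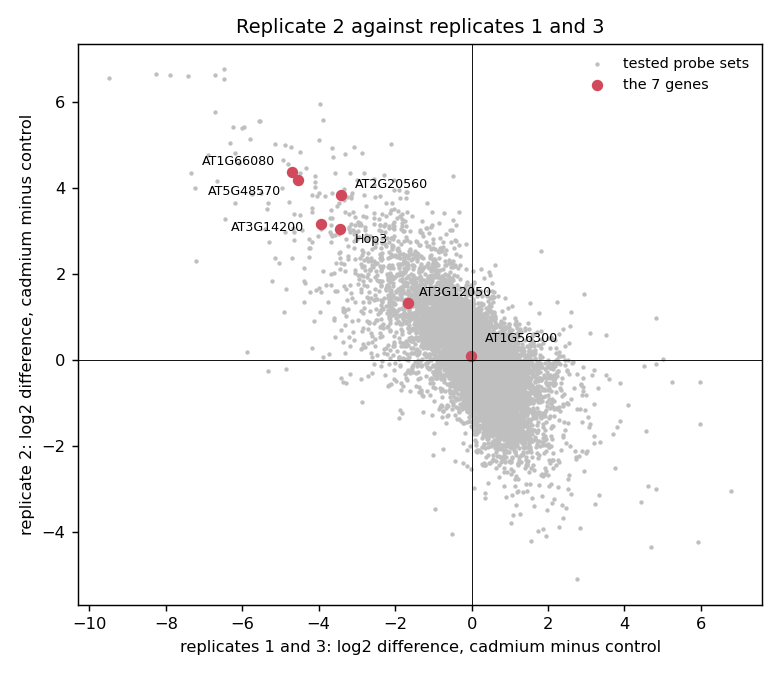
Log2 difference between the cadmium and control arrays in replicate 2 (vertical) against that within replicates 1 and 3 (horizontal) for all tested probe sets (grey) and the 7 genes (red). Of the 7 genes, 6 lie at the upper left, from -1.66 to -4.70 on the horizontal and from 1.32 to 4.37 on the vertical axis, and AT1G56300 lies close to the origin.

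The size of the differences depended on single arrays. Leaving out an array of replicate 1 or 3 left its group there with a single array and no spread, so only effect sizes are given. Within replicates 1 and 3 the median of the 7 genes was -4.62 without control replicate 3 and -2.26 without control replicate 1. It was -4.22 without cadmium replicate 1 and -2.66 without cadmium replicate 3. In the test of replicate 2 the median of the 7 genes was 5.46 without control replicate 1 and 7.67 without control replicate 3. It was 7.27 without cadmium replicate 1 and 6.32 without cadmium replicate 3.

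With each array's median subtracted, which removes the difference in median between the arrays, cadmium array 2 lay above both other cadmium arrays in 7 of 7 genes, and in 38.8% of all tested probe sets. Control array 2 lay below both other control arrays in 6 of 7, the exception being AT1G56300, and in 47.5% of all tested probe sets. For AT5G48570 the centred log2 signals were 0.95, 4.82 and -0.48 on cadmium arrays 1, 2 and 3, against 5.52, 0.54 and 4.54 on the control arrays. Cadmium array 2 lay between control arrays 1 and 3 for this gene and for 5 of 7 in all, and above both for AT3G14200 and AT1G56300. Control array 2 lay between cadmium arrays 1 and 3 for 2 of 7, AT5G48570 and AT2G20560, and above both for the other 5. These placements were not counted over all tested probe sets, so they cannot be called particular to the 7 genes. For Hop3 the centred log2 signals were 0.79, 4.69 and -0.62 on the cadmium and 4.98, 1.55 and 2.59 on the control arrays. The actin 3' to 5' ratio and the scaling moved with replicate 2 in both groups, and their part in these values was not tested.

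The chaperones that these proteins serve were measured in part. Of 21 listed heat shock factors 0 had a named probe set and they are not analysed here. Of 31 listed HSP90, HSP70, HSP100 and HSP60 genes 4 were tested. Within replicates 1 and 3, 0 were higher (1.29% of all tested probe sets) and 1 was lower (3.24%). It was AT3G09440, a cytosolic HSP70, with signals of 2781, 5842 and 2063 on cadmium arrays 1, 2 and 3, against 13949, 716 and 11828 on the control arrays. It was 5.36-fold lower within replicates 1 and 3 (log2 difference -2.42 ± 0.22 SE, adjusted p = 0.0142, limma), and in replicate 2 its log2 difference was 3.03. Hsp70-2, another cytosolic HSP70, was at -1.83 ± 0.38 SE (adjusted p = 0.0659). The HSP70 relatives AT4G16660 and AT1G11660 were at -0.65 and 0.12 (adjusted p = 0.279 and 0.787). Probe sets of near-identical HSP70 copies can share signal, so these values are uncertain as to the copy.

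Of 31 other listed co-chaperones 14 had a named probe set and 13 were tested. Within replicates 1 and 3, 2 were lower and 0 higher, beside 3.24% and 1.29% of all tested probe sets. The median of the 13 there was -0.50. Fes1A, a nucleotide exchange factor of HSP70, had signals of 535, 3503 and 381 on cadmium arrays 1, 2 and 3, against 11914, 160.0 and 7000.4 on the control arrays. It was 20.2-fold lower within replicates 1 and 3 (adjusted p = 0.0121, limma), and in replicate 2 its log2 difference was 4.45. SGT1A, an HSP90 co-chaperone of plant immunity, was 6.29-fold lower (adjusted p = 0.0149), with 2.88 in replicate 2. BOB1, a NudC-domain chaperone, was at -0.87 (adjusted p = 0.184), AT5G58110 at -0.50 (adjusted p = 0.315), and ATERDJ3B, a DnaJ protein of the endoplasmic reticulum, at 0.14 (adjusted p = 0.754).

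The 3 HOP genes differed in span, a comparison of their differences that was not tested. Within replicates 1 and 3 the log2 difference was -3.44 ± 0.89 SE for Hop3, -1.26 ± 0.37 for Hop2 (adjusted p = 0.129) and 0.26 ± 0.21 for Hop1 (adjusted p = 0.472). In replicate 2 the values were 3.05, 1.43 and 0.11. Hop1 was named after its values were seen.

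**Figure D4:**
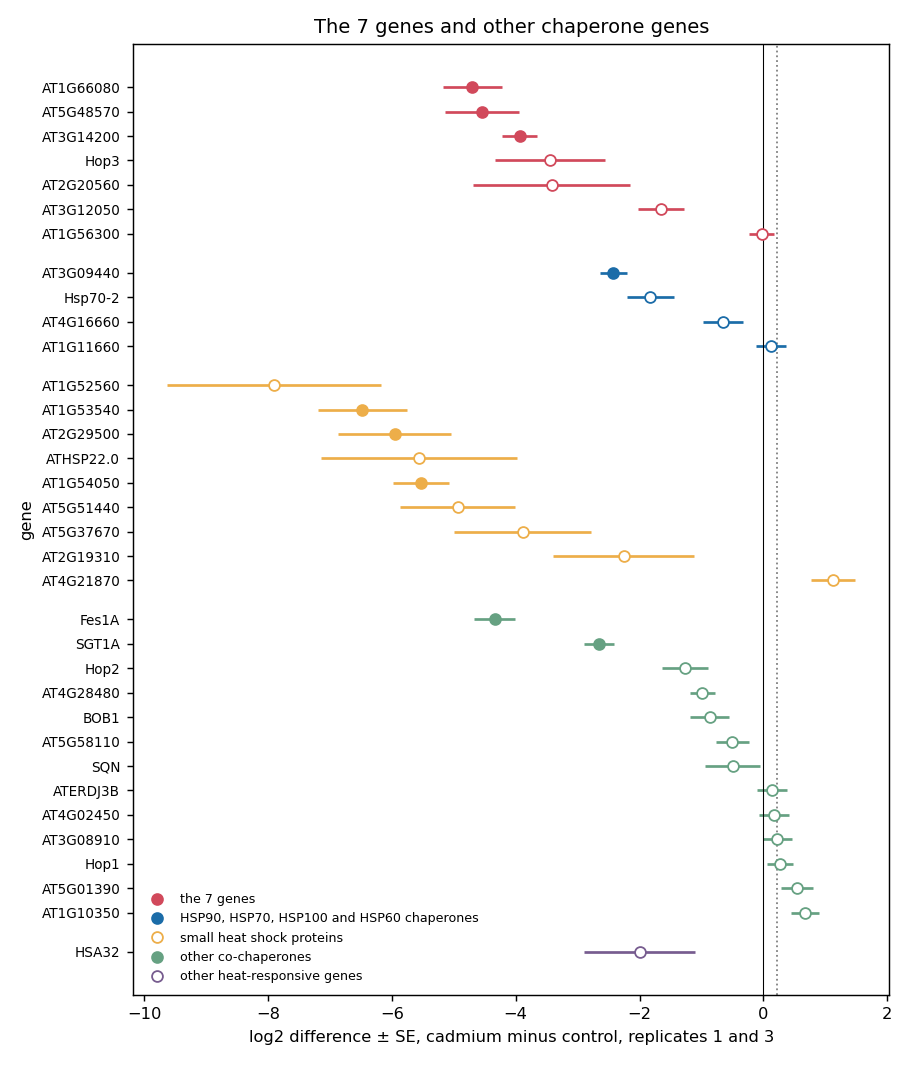
Log2 difference between cadmium and control within replicates 1 and 3, with its SE, for the 7 genes and the tested members of 4 lists. Filled points passed the threshold, the dotted line is the median of all tested probe sets (0.22), and Fes1A and AT3G09440 are among the filled points outside the 7 genes.

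Small heat shock proteins, which hold unfolding proteins until HSP70 takes them over, had 9 of 17 listed genes tested. Within replicates 1 and 3, 3 were lower and 0 higher, beside 3.24% and 1.29% of all tested probe sets. AT1G54050 had signals of 279 and 119 on cadmium arrays 1 and 3, against 9964 and 7123 on the control arrays, and 3881 on the cadmium against 81.9 on the control array of replicate 2. Of the 6 brightest, AT1G54050, AT1G53540 and AT2G29500 passed, and AT5G51440 (-4.94, adjusted p = 0.0548), ATHSP22.0 (-5.56, adjusted p = 0.121) and AT2G19310 (-2.25, adjusted p = 0.289) did not. In the test of replicate 2, 5 of 9 were called higher, beside 5.09% of all tested probe sets. HSA32, a protein of acquired thermotolerance and the only 1 of 12 other heat-responsive genes with a named probe set, was at -2.0 ± 0.89 SE (adjusted p = 0.244) and at 1.31 in replicate 2.

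The profile of each gene over the 6 arrays, with array medians subtracted, was set against the mean of the other 6 as a description. Pearson's r was 0.94 to 0.99 for 6 of the genes and 0.75 for AT1G56300, over 6 arrays that include the 2 of replicate 2. Among 8721 other genes with a named probe set, the 8 of highest r with the mean of the 7 had r from 0.990 to 0.996. They included the small heat shock proteins AT2G29500 and AT1G53540, and AT1G01940, which is a cyclophilin and so another peptidyl-prolyl isomerase. The others were AT2G20940, AT3G51250, AT3G28580, AT5G25450 and Y14, a core protein of the exon junction complex.

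Likeness of shape went with very different spans. AT1G53540 was at -6.48 within replicates 1 and 3 and 6.75 in replicate 2. AT1G01940 was at -1.26 and 1.0, AT3G51250 at -0.10 and 0.24, and Y14 at -0.12 and 0.33, so for these last 2 the like profile covered little signal. AT5G25450 (-3.53 and 3.58) and AT3G28580 (-3.20 and 3.39) had spans close to those of Hop3.

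**Figure D5:**
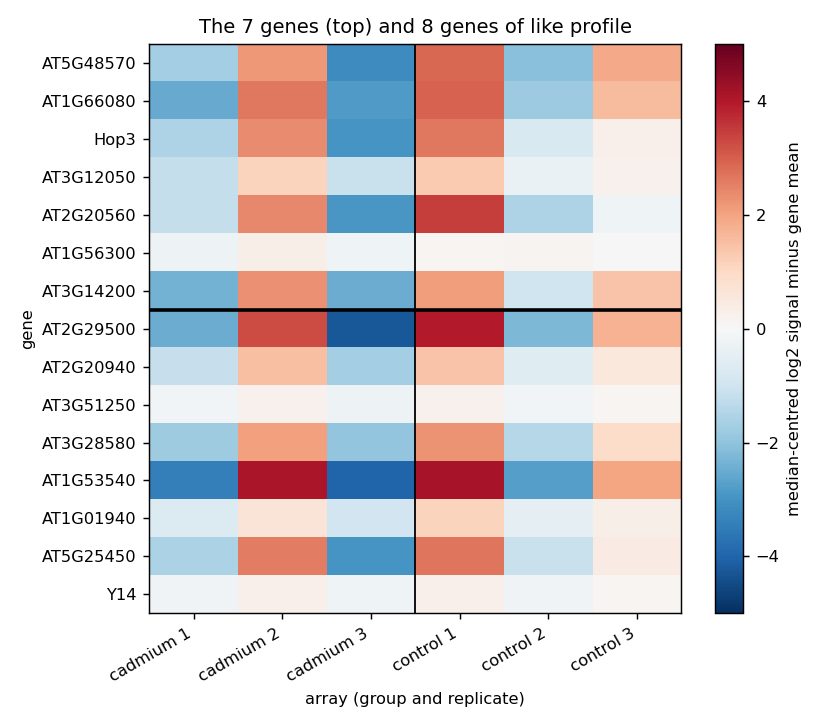
Median-centred log2 signal minus each gene's mean on the 6 arrays (cadmium left, control right) for the 7 genes (top) and the 8 genes of most similar profile (bottom). High values (red) fall on cadmium array 2 and control array 1, and for some genes on control array 3. On control array 3 Hop3 is close to its own mean and AT2G20560 slightly below it. AT1G56300, AT3G51250 and Y14 are pale throughout.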

How the data were processed

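The deposited values are a linear intensity per probe set and array, made by the authors with MAS5 per the submitters' processing notes; version and scaling target are not given in the sources used here. The file has 6 value columns, 1 per sample. Titles gave the groups and replicate numbers; the descriptions number replicates differently but pair the same arrays, and the labels do not say what a number stands for. The spread behind each p-value is that between arrays, which the labels call biological replicates.

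Signals were analysed on the log2 scale as deposited. Values of 0 (7 in all) were replaced by the smallest positive signal of the array. The filter left out 64 control probe sets and those with a mean signal under the 30th percentile (73.0). Tests used limma 3.58.1 in R 4.3.3 (lmFit, eBayes with intensity trend, two-sided, Benjamini-Hochberg over 15909 probe sets, threshold 0.05), with 4 residual degrees of freedom over all 6 arrays and 2 in the other tests. Over 3 against 3 arrays an exact permutation test cannot go below 0.1. Genes were named through the array annotation and the TAIR10.1 RefSeq table; 13513 probe sets had 1 gene, 503 several and 8730 none.

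The 7 genes, the lists and the tests were chosen with earlier results of these data known. The text names the 7, up to 6 tested genes of each list by mean signal, and the 8 genes of most similar profile. In simulations with 15909 probe sets, 50 of them changed at each size, the fit of replicates 1 and 3 recovered 0%, 18%, 42% and 50% at log2 changes of 1, 2, 3 and 4 with 4 false calls. The fit over all 6 arrays recovered 0% at each. Its simulated spread was that within groups over all 6 arrays, so the opposition of replicate 2 entered it as random noise. That 0% is therefore not the recovery of 3 against 3 arrays in general. The test of replicate 2 recovered 0%, 40%, 64% and 68% at 2, 4, 6 and 8 with 3 false calls. That simulation gave the arrays of replicate 2 the spread of replicates 1 and 3 and no shift of their own. It therefore cannot show how many false calls the real arrays of replicate 2 would give. Alternatives in scaling, filter, floor, trend, block, batch term, array weights and single arrays were run. Each gene had 1 named probe set, so another probe set could not be tried.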

Additional observations from a re-analysis of the deposited data

How the results depend on the processing

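Over all 6 arrays, array weights (0.12 and 0.20 for the cadmium and control arrays of replicate 2, 1.32 to 3.56 for the others) raised the calls to 1560 probe sets and 6 of the 7 genes, and turned AT1G56300 to -0.0018; quantile normalization and median centring turned it to -0.058 and -0.13. Leaving out 1 array gave 0 to 1 calls, a median of -2.38 to -0.16, -0.28 to 0.26 for AT1G56300 and -2.37 to 0.58 for AT2G20560. Within replicates 1 and 3, 353 probe sets passed without the intensity trend, and leaving out 1 array gave 142 (cadmium replicate 1), 146 (cadmium replicate 3) to 1266 calls (control replicate 3), 2 to 6 of the 7 genes, a median of -4.62 to -2.26 and -0.075 to 0.025 for AT1G56300. In the test of replicate 2, 916 probe sets passed without the filter and 815 without the trend, and leaving out 1 array gave 313 (cadmium replicate 1), 343 (cadmium replicate 3) to 2363 calls (control replicate 3), 3 to 6 genes and a median of 5.46 to 7.67. The causes were not tested. Calls split into 205 higher and 516 lower within replicates 1 and 3, and into 110 and 681 after median centring, which moved the median of all tested probe sets to -0.033. In the test of replicate 2 the split was 809 and 612, and 944 and 297 after centring.

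Deviations from group means of same-numbered arrays correlated at 0.11, -0.04 and 0.29, so the numbers were not taken to pair the arrays, and not every array correlated best with its own number. With a replicate block the calls were 0 over all 6 arrays. Within replicates 1 and 3 they were 3521 of 15909 probe sets in either direction, and 6 of the 7 genes as lower. Among these 6 were Hop3, AT3G12050 and AT2G20560 (adjusted p = 0.00023, 0.0042 and 0.0014, limma). The share of all tested probe sets called lower with the block was not counted.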

Other observations

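Of the 13 tested co-chaperones outside the 7 genes, 7 were lower on the cadmium array in replicates 1 and 3 and higher in replicate 2, and 3 were the reverse. Over all tested probe sets 18.8% had the first combination, and 6507 of 15909 had the reverse. The genes given here were named after their values were seen. Within replicates 1 and 3 the DnaJ genes AT5G01390 and AT1G10350 were at 0.55 ± 0.26 SE and 0.67 ± 0.22 SE (adjusted p = 0.262 and 0.155, limma), and in replicate 2 they were at -0.89 and -0.91. AT4G28480, another DnaJ gene, was at -0.98 ± 0.20 SE (adjusted p = 0.0653) and at 1.23 in replicate 2. For AT4G28480 the test of replicate 2 against the other pairs passed (2.21 ± 0.35 SE, adjusted p = 0.0321).

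SQN, a cyclophilin partner of HSP90, had signals of 280, 264 and 221 on cadmium arrays 1, 2 and 3, against 537, 53.8 and 229 on the control arrays. Its difference in replicate 2 was 2.30, against -0.50 ± 0.45 SE in replicates 1 and 3 (adjusted p = 0.528, limma). The p23 gene AT4G02450, which binds HSP90 late in its cycle, was at 0.18 in replicates 1 and 3 (adjusted p = 0.681) and at 1.16 in replicate 2. Among the 9 tested small heat shock genes AT4G21870 ran opposite to the other 8, at 1.13 ± 0.36 SE in replicates 1 and 3 (adjusted p = 0.144) and -1.02 in replicate 2.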
